A study of Mus musculus with 6 samples.

Results

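The cytosolic ribosomal protein genes were examined in mouse samples sorted as elongating spermatids. They were taken as the genes whose array symbol begins with Rpl or Rps followed by a digit, or with Rplp, leaving out Rps6 kinases and symbols that mark a pseudogene. Only probe sets annotated to 1 gene were used, and the probe set with the highest mean log2 signal over the 4 shRNA arrays stood for its gene. This gave 49 of 18193 genes, drawn from 104 of 34945 single-gene probe sets. They comprise 22 proteins of the large subunit, 20 of the small subunit, 6 paralogs (Rpl3l, Rpl7l1, Rpl22l1, Rpl39l, Rps4l and Rps27l) and Rps19bp1. Rps19bp1 binds a ribosomal protein and is not one itself, and RefSeq lists Rps4l as a transcribed pseudogene.

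The study used Affymetrix mouse 3' arrays on spermatids, the haploid cells in which the nucleus condenses, from wild-type ICR mice, an outbred strain. Testes were transduced at 5 weeks of age with lentiviral GFP vectors, and 1 week afterwards spermatids with GFP were sorted out of the germ cells. One vector expressed a hairpin against Miwi (shMiwi), another a hairpin against Caf1 (shCaf1), and the control was the pSilencer backbone, with 2 arrays in each group. The labels name no promoter for the hairpins or GFP. The labels call the arrays biological replicates without saying how many animals each stands for, so p-values measure the spread between these arrays.

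The cytosolic ribosome is built from a large and a small subunit, each an assembly of ribosomal RNA with many small, mostly basic proteins that are made in nearly equal amounts. Most of their mRNAs begin with a run of pyrimidines at the 5' end, the TOP motif, through which the mTOR pathway sets their translation. In the male germ line some X-linked ribosomal protein genes have autosomal copies that are used when the X chromosome is silenced in meiosis. Rpl10l and Rpl39l, copies of the X-linked Rpl10 and Rpl39, are the best known in mouse. No probe set was annotated to Rpl10l, and Rpl10 stood only on 2 probe sets that name several genes. The comparison of germ-cell paralogs with the rest therefore rests on Rpl39l. A further 31 ribosomal protein genes stood only on probe sets that name several genes and are not analysed here.

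The start regions of 9 genes are shown, those of Rpl39l and its parent Rpl39 and of 7 of the 8 genes called lower in shMiwi below, so that their pyrimidine runs can be compared. RefSeq gave a promoter window (build GRCm38.p6) for 43 of the 49 genes. Each sequence runs 5' to 3' on the strand of the gene, with 40 bases before and 30 bases after the annotated start. The capitals mark the longest run of C and T that overlaps the stretch from 10 bases before to 20 bases after the start.
Rpl39l, the germ-cell paralog, chr16:10170188-10170257, plus strand: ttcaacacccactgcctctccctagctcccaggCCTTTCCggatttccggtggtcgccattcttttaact
Rpl39, its X-linked parent, chrX:37085193-37085262, minus strand: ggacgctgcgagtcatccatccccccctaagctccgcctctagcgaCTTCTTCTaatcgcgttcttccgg
Rpl35, chr2:39005102-39005171, minus strand: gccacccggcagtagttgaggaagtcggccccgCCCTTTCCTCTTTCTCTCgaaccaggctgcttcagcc
Rpl13a, chr7:45128716-45128785, minus strand: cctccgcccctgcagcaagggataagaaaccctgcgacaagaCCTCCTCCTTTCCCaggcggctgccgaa
Rpl37, chr15:5116573-5116642, plus strand: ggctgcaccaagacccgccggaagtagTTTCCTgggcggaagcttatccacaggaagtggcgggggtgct
Rpl37a, chr1:72711220-72711289, plus strand: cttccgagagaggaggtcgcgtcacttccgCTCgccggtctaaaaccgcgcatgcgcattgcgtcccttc
Rpl38, chr11:114668540-114668609, plus strand: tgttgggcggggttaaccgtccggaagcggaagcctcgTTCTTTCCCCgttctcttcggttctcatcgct
Rpl41, chr10:128549139-128549208, minus strand: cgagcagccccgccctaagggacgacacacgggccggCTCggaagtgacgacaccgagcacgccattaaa
Rps19, chr7:24884552-24884621, plus strand: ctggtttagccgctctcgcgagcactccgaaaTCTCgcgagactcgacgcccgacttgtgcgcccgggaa
The run measures 18 bases in Rpl35, 14 in Rpl13a, 10 in Rpl38, 8 in Rpl39, 7 in Rpl39l, 6 in Rpl37, 4 in Rps19 and 3 in Rpl37a and Rpl41, so the called genes include long and short runs. These are runs in the genome near an annotated start and not shown to be the 5' end of an mRNA. The run of Rpl37 begins 13 bases before that start and ends before it. The runs of Rpl39l, Rpl37a, Rpl41 and Rps19 also end before the start. The runs of Rpl13a and Rpl39 begin after it, at bases 3 and 7 counted from the start. Only those of Rpl35 and Rpl38 span it. A run of at least 6 in this stretch was present in 27 of the 43 genes (62.8%), against 36.3% of 27025 RefSeq promoter windows. The letters CGGAAG, the core of a site for ETS-family factors, were present on either strand of the 300 bases in 30 of the 43 (69.8%), against 17.2% of all windows. The palindrome TGACGTCA was present in 2 (4.65%), against 1.88%. These are matches of letters and not shown to be bound or used.

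The arrays of the control group stood apart. The hybridization controls, labelled RNAs meant to be added in a fixed amount, read 0.941 and 0.806 times the shRNA mean in shMiwi and 1.10 and 1.20 times in shCaf1. In control they read 82.3 and 16.2 times that mean. Each array had been scaled to the same trimmed mean. If equal amounts were added, signals on the control arrays are multiplied up relative to the shRNA arrays. Whether the amounts were equal was not tested. The elongating spermatid markers Prm1, Prm2, Tnp1, Tnp2 and Akap4 were bright on the 4 shRNA arrays and on control 2. On control 1 these 5 read between 19.6 and 110, below that array's median signal of 306, and the sixth marker, Odf1, read 559. The ratio of 3' to 5' signal of Actb was 2.05 and 3.01 in shMiwi, 2.87 and 4.69 in shCaf1, and 0.69 and 14.5 in control. That of Gapdh was 0.81 and 1.00 in shMiwi, 1.06 and 1.73 in shCaf1, and 0.72 and 5.11 in control. These unequal ratios limit each comparison, and their part in the values was not tested. Piwil1, the gene of Miwi, read 9780 and 10392 in shMiwi, 21881 and 22442 in shCaf1, and 1445360 and 292542 in control. It was lower in shMiwi than in shCaf1 by -1.14 (SE 0.10, adjusted p = 0.00132), and by -0.74 when scaled on the hybridization controls. Cnot7, taken here as Caf1, read 4365 and 5012 in shMiwi, 3633 and 4330 in shCaf1, and 2003570 and 188877 in control. The order of Cnot7 between the shRNA groups follows the vector names, but its log2 difference of 0.24 did not pass (adjusted p = 0.304).

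Ribosomal protein genes were among the bright genes on these arrays. The sorted samples also gave signal for markers of other cells. On the shRNA arrays the pachytene list summed to between 52175 and 57716, the Sertoli list to between 23592 and 27235. The Leydig list summed to between 19498 and 23954. The values are thus those of bulk samples and not shown to come from spermatids alone. A signal above 1000 was reached by 40 of the 49 on each shRNA array and on control 2, and by 31 on control 1. Their median signal was 7562 and 8090 in shMiwi, 8797 and 8830 in shCaf1, and 5611 and 19998 in control. The pattern over the 49 genes was nearly the same on the 4 shRNA arrays, with Pearson's r between 0.986 and 0.997 for log2 signal. With the shRNA arrays r was between 0.813 and 0.838 for control 2 and between 0.498 and 0.542 for control 1. These correlations are across genes of single arrays, which share their scaling, and are given as a description.

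The comparison of shMiwi with shCaf1 used the 4 shRNA arrays alone and asks whether the family differs between spermatids that received the 2 hairpins. On the deposited scale, most ribosomal protein genes read slightly lower in shMiwi, and 8 passed the test. These are Rpl13a, Rpl35, Rpl37, Rpl37a, Rpl38 and Rpl41 of the large subunit and Rps19 and Rps29 of the small subunit. For the family as a whole the direction depends on how the arrays are scaled. Scaled on the hybridization controls, most of the family reads higher in shMiwi, and with quantile scaling the median is near 0. Of the 49 genes, 47 passed the filter on low signal, and Rpl3l and Rps16 did not. Lower calls at a Benjamini-Hochberg adjusted p under 0.05 in limma numbered 8 of 47, against 3.39% of the 27022 probe sets tested. Higher calls numbered 0 of 47, with 1 at an unadjusted p under 0.05, against 3.7% of all tested. The log2 difference was negative in 36 and positive in 11, with a median of -0.20 and a range of -0.84 to 0.99. The median over all tested probe sets was 0.02. Both shMiwi arrays lay below both shCaf1 arrays for 27 of the 47 genes, against 25.0% of all tested probe sets. The 8 calls became 3 without shMiwi 1, 3 without shCaf1 1 and 1 without shCaf1 2, and 0 in 1 model that included the control arrays. Rps19 passed in each fit that left out 1 of the 4 arrays (adjusted p from 0.00158 to 0.0468). In bulk samples, fewer cells of a type and less RNA per cell cannot be told apart.

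**Figure D1:**
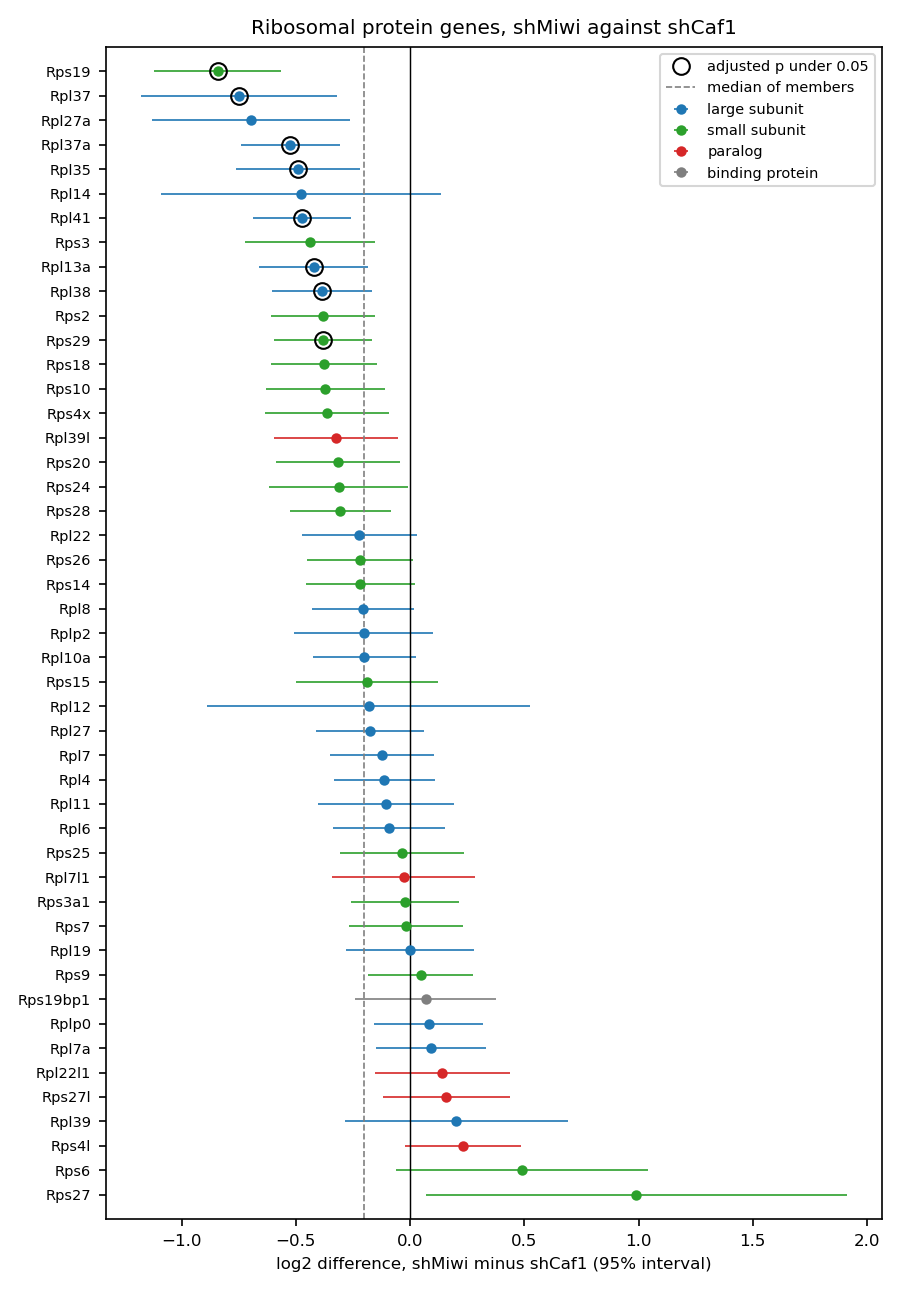
Log2 difference of shMiwi minus shCaf1 (x axis) for the 47 ribosomal protein genes tested (y axis), with 95% intervals from limma on 4 arrays. Colours give the class, open circles mark the 8 genes with an adjusted p under 0.05, and the dashed line is the median of -0.20; the called genes all lie on the negative side on this scale.

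Rpl39l, the testis copy of the exit-tunnel protein encoded by Rpl39, read 16003 and 16198 in shMiwi, 18052 and 22584 in shCaf1, and 309 and 26214 in control. Both shMiwi arrays lay below both shCaf1 arrays, and the control arrays spanned all 4. Between the shRNA groups it differed by -0.33 (SE 0.12, 95% interval -0.60 to -0.05), which missed the threshold (adjusted p = 0.134). On the scale of the hybridization controls it was 0.07. Its parent Rpl39 was dim, at 275 and 214 in shMiwi, 229 and 190 in shCaf1, and 61.9 and 876 in control. The groups overlapped, and the difference was 0.20 (SE 0.21, adjusted p = 0.615).

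The within-array log2 ratio of Rpl39l to Rpl39 does not depend on the scaling of an array, apart from the constant added before the logarithm. Probe sets differ in how strongly they bind, so only the change of this ratio between groups carries meaning. It was 5.78 and 6.14 in shMiwi, 6.20 and 6.78 in shCaf1, and 2.06 and 4.88 in control. All 3 groups were separate, with shCaf1 at the top and control at the bottom. On control 1 Rpl39 lay below that array's median signal of 306 and Rpl39l at about it, and neither is shown there to exceed background. The ratio on control 1, and the differences from control that use it, are given with that limit. The mean difference was -0.53 for shMiwi against shCaf1, 2.49 for shMiwi against control and 3.02 for shCaf1 against control. The exact two-sided permutation test gave p = 0.333 for each, the smallest value that 2 arrays against 2 allow, so none can pass. In shMiwi against shCaf1 the other 46 tested genes had a median of -0.20 and a range of -0.84 to 0.99. The -0.33 of Rpl39l lay within that range, and whether it differs from the rest was not tested.

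The paralogs varied in sign. Of 5 tested, 3 were positive and 2 negative, with a median of 0.14 and 0 calls, and 1 gene (Rpl39l) reached an unadjusted p under 0.05. Rps4l, related to the X-linked small-subunit gene Rps4x, read 4907 and 4623 in shMiwi, 4257 and 3866 in shCaf1, and 90.0 and 2041 in control. Both shMiwi arrays were above the other 4, and the 0.23 against shCaf1 did not pass (SE 0.11, adjusted p = 0.246). Rps4x itself read 1691 and 1747 in shMiwi, 2150 and 2290 in shCaf1, and 34034 and 21245 in control. Both shMiwi arrays lay below both shCaf1 arrays, and the -0.37 did not pass (SE 0.12, adjusted p = 0.101).

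The ratio of Rps4l to Rps4x, a pair chosen after the values were seen, was 1.53 and 1.40 in shMiwi, 0.98 and 0.75 in shCaf1, and -8.33 and -3.37 in control. The shMiwi arrays stood highest and the control arrays lowest, and the shRNA groups differed by 0.60 (exact permutation p = 0.333, the smallest possible). On control 1 Rps4l, at 90.0, lay below that array's median signal of 306 and is not shown to exceed background. The ratio of -8.33 is given with that limit. The ratio of Rpl22l1 to Rpl22, also chosen afterwards, was -0.42 and -0.28 in shMiwi and -0.68 and -0.75 in shCaf1, against 7.65 and 2.18 in control. Rpl22l1 encodes the close relative of the RNA-binding large-subunit protein Rpl22. Here too the shMiwi arrays were above the shCaf1 arrays, by 0.36. The chosen probe set of Rpl22 gave -0.22 between the shRNA groups, against 0.14 for Rpl22l1. Another Rpl22 probe set, at 3030 and 5006 in shMiwi and 2842 and 3415 in shCaf1, gave 0.32. That is above the 0.14 of Rpl22l1, so the sign of the ratio change depends on the probe set used for Rpl22. The dimmest Rpl22 probe set gave -0.18, and none of these values passed. The ratios of Rps27l to Rps27 and of Rpl7l1 to Rpl7 differed by -0.83, with overlapping arrays, and by 0.09.

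**Figure D2:**
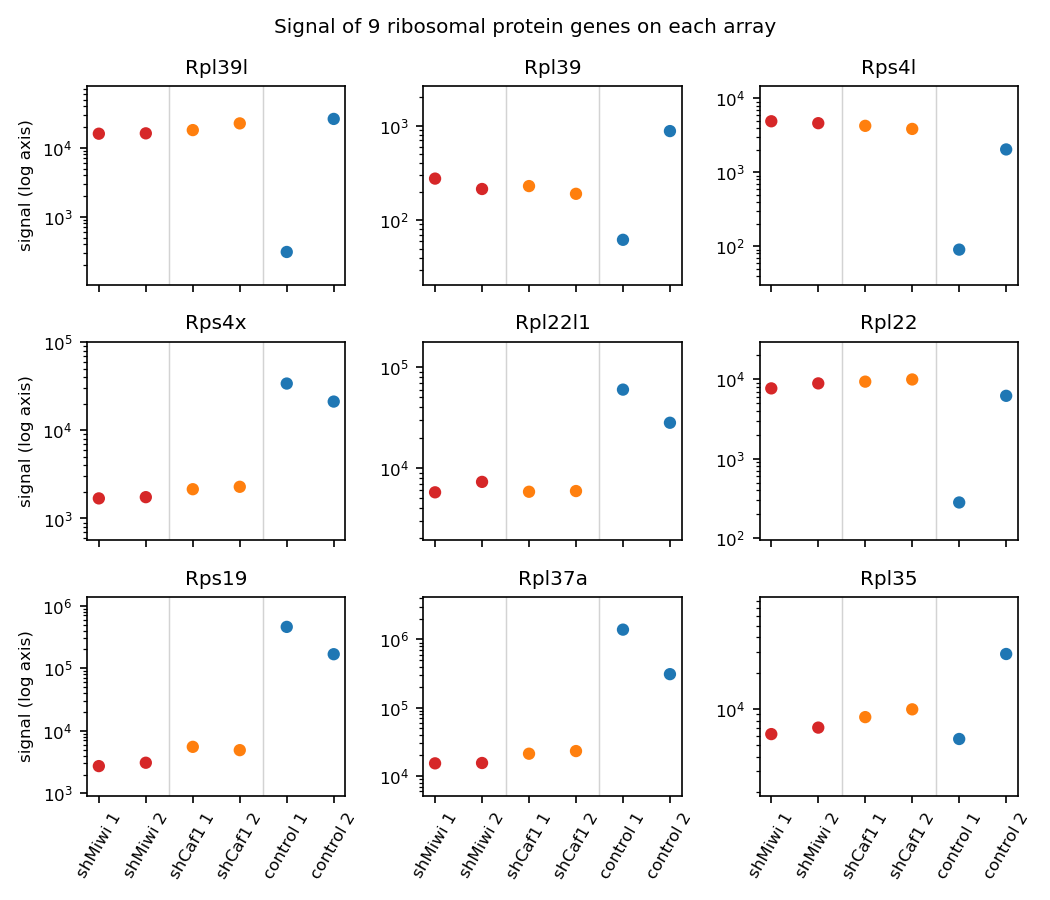
Deposited signal (log axis, its range set for each gene) of 9 ribosomal protein genes on each of the 6 arrays (x axis), coloured by group. The shMiwi and shCaf1 arrays lie close together for every gene shown. The control arrays lie far above both shRNA groups for Rps19, and for Rpl39l control 1 lies far below them at 309 while control 2, at 26214, lies just above.

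In the large subunit, 6 of 22 genes were called lower, against 3.39% of all tested probe sets. Of the 22, 18 were negative and 4 positive, with a median of -0.20. Rpl37 had the most negative value, with signals of 1013 and 1382 in shMiwi, 1731 and 2310 in shCaf1, and 78676 and 58416 in control. The shMiwi arrays were the lowest of the 6 and the control arrays the highest. Between the shRNA groups Rpl37 differed by -0.75 (SE 0.19, adjusted p = 0.0499), the call nearest to the threshold. Rpl37a, which like Rpl37 carries a zinc-binding motif, read 15320 and 15502 in shMiwi, 21199 and 23178 in shCaf1, and 1389590 and 309784 in control. Its groups were separate in the same order, and the shRNA groups differed by -0.52 (SE 0.10, adjusted p = 0.0209).

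Rpl35, a protein near the exit of the peptide tunnel with the longest pyrimidine run shown above, read 6166 and 6989 in shMiwi, 8556 and 9942 in shCaf1, and 5611 and 28914 in control. It was lower in both shMiwi arrays, by -0.49 (SE 0.12, adjusted p = 0.045), and the control arrays spanned the others. All 4 of its other probe sets that passed the filter were negative as well, between -0.51 and -0.20, and none was called. Rpl41, one of the shortest proteins of the cell, read 11917 and 12005 in shMiwi, 16238 and 16974 in shCaf1, and 664 and 82844 in control. The shRNA groups were separate, at -0.47 (SE 0.09, adjusted p = 0.0272). Rpl13a, also known for translational control in inflammation, read 11182 and 12170 in shMiwi, 14821 and 16518 in shCaf1, and 17983 and 55210 in control.

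For Rpl13a no 2 groups overlapped, and shMiwi lay -0.42 from shCaf1 (SE 0.10, adjusted p = 0.0468). Its 4 probe sets did not move together, since the remaining 3 gave -0.19, 0.38 and 0.45. Rpl38, known in mouse for its part in the translation of Hox mRNAs, read 18103 and 18860 in shMiwi, 23048 and 25352 in shCaf1, and 137093 and 141403 in control. Its difference was -0.39 (SE 0.10, adjusted p = 0.0479), with all groups separate. Rpl27a read 427 and 579 in shMiwi, 736 and 906 in shCaf1, and 895 and 1187 in control, which is -0.70 (SE 0.19, adjusted p = 0.0616) on its brightest probe set. Its second probe set, 298 and 319 in shMiwi against 884 and 919 in shCaf1, gave -1.50 (SE 0.15, adjusted p = 0.0027). Rpl14 was dim, at 69.7 and 105 in shMiwi and 123 and 128 in shCaf1, and its -0.48 did not pass (adjusted p = 0.317).

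The stalk proteins, which recruit elongation factors to the ribosome, were represented by Rplp0 and Rplp2. Rplp0 read 6294 and 6879 in shMiwi, 6189 and 6254 in shCaf1, and 20376 and 37036 in control, and Rplp2 read 9824 and 11593 in shMiwi, 11004 and 13734 in shCaf1, and 7157 and 39461 in control. The shMiwi arrays were just above the shCaf1 arrays for Rplp0 and overlapped them for Rplp2. Neither passed, at 0.08 (SE 0.11, adjusted p = 0.69) for Rplp0 and -0.20 (SE 0.13, adjusted p = 0.394) for Rplp2.

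In the small subunit, 2 of 19 tested genes were called lower, against 3.39% of all tested probe sets. Of the 19, 16 were negative and 3 positive, with a median of -0.31. Rps19, needed for maturation of the small subunit and mutated in human Diamond-Blackfan anaemia, had the most negative difference of the family. It read 2725 and 3084 in shMiwi, 5537 and 4903 in shCaf1, and 458546 and 167689 in control. The groups were far apart, and the shRNA groups differed by -0.84 (SE 0.12, adjusted p = 0.00989), a fold of 0.558. Scaled on the hybridization controls it stood at -0.45 and missed the threshold (adjusted p = 0.0867), and with quantile scaling it was -0.80 (adjusted p = 0.0104). Rps29, a small zinc-binding protein, read 26600 and 24954 in shMiwi, 32132 and 35046 in shCaf1, and 402 and 79364 in control. It was lower in both shMiwi arrays, by -0.38 (SE 0.09, adjusted p = 0.0475).

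Among the chosen probe sets, those of 2 dim small-subunit genes gave the largest positive values. Rps27 read 339 and 117 in shMiwi, 98.8 and 88.3 in shCaf1, and 262 and 1625 in control, a difference of 0.99 that rests mainly on the first shMiwi array (SE 0.41, adjusted p = 0.173). Rps6, the substrate of S6 kinase, read 144 and 126 in shMiwi, 97.6 and 85.4 in shCaf1, and 58.8 and 39.4 in control. All 3 groups were separate, but the 0.49 between the shRNA groups did not pass (SE 0.24, adjusted p = 0.256). Rps16 read between 2.80 and 20.9 on the shRNA arrays and was not tested. Rps19bp1 gave 0.07 (adjusted p = 0.805).

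The scale of the arrays set the sign of the family median. Scaling on the hybridization controls moved the median of all tested probe sets to 0.39 and that of the 47 genes to 0.19. Relative to all probe sets the family median was then -0.20, close to the -0.23 on the deposited scale. On that scale 7 genes were called higher (Rpl7a, Rpl22l1, Rplp0, Rps4l, Rps6, Rps27 and Rps27l) and 0 lower, with 1 lower at an unadjusted p under 0.05, against 26.5% of all tested probe sets called higher. Of the 8 genes called lower on the deposited scale, none passed on that of the hybridization controls. Rps19, Rpl37, Rpl37a, Rpl35, Rpl41 and Rpl13a stayed negative there, between -0.45 and -0.02. Rpl38 and Rps29 read 0.01 and 0.02. All 8 were negative with quantile scaling. With quantile scaling the family median was -0.03, that of all probe sets 0.01, and 2 of the 8, Rps19 and Rpl37, were called lower.

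**Figure D3:**
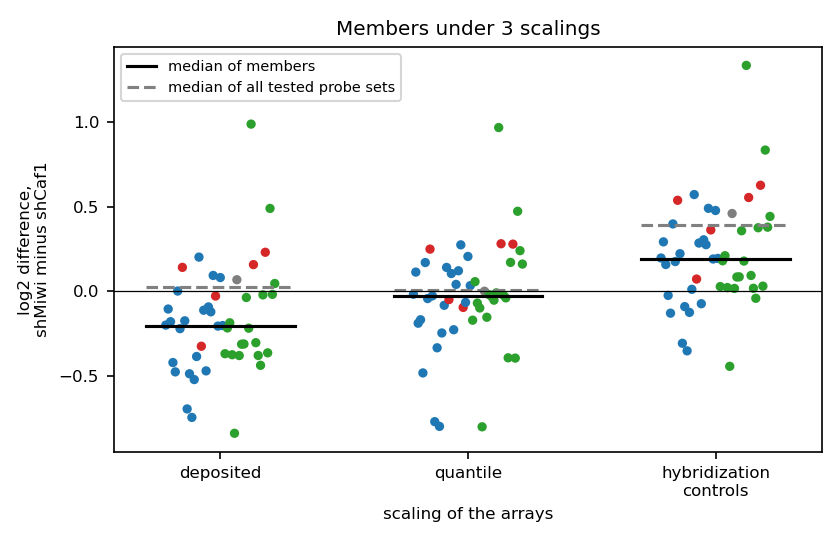
Log2 difference of shMiwi minus shCaf1 (y axis) for each of the 47 tested genes under 3 scalings of the arrays (x axis), coloured by class. Black bars are the medians of the genes (-0.20 deposited, -0.03 quantile, 0.19 hybridization controls) and dashed bars those of all tested probe sets (0.02, 0.01 and 0.39), so the black bar lies below the dashed bar in each.

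Brightness moved with the result. Among the 1920 probe sets with a mean log2 signal of at least 12 over the shRNA arrays, a limit set after the data were seen, 70.9% were negative and 13.8% were called lower, with a median of -0.15. Of the 35 ribosomal protein genes that bright, 28 were negative and 6 were called lower, with a median of -0.21. With quantile scaling the medians were 0.01 for these probe sets and -0.02 for these genes. The type of probe set moved with it too. Probe sets with the suffix x, whose probes can match other sequences such as the many ribosomal protein pseudogenes, made up 7 of the 8 called and 14 of the 47 tested. When probe sets with the suffix s or x were left out, 1 gene (Rps19) was called. Signals of paralogs and pseudogenes that share probes cannot be separated, and their part in the result was not tested.

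Cell markers also differed between the shRNA groups. On the deposited scale 3.39% of all tested probe sets were called lower and 3.7% higher. Among probe sets with a mean log2 signal of at least 12, 13.8% were called lower, with a median of -0.15. The elongating spermatid markers were called lower in shMiwi in 5 of 6 cases, with a median of -0.46 and summed signals of 101991 and 94700 in shMiwi against 134038 and 145722 in shCaf1. Their named members include Akap4 at -0.98 (adjusted p = 0.00355) and Odf1 at -0.70 (adjusted p = 0.0109). Among peritubular myoid markers 2 of 5 were higher, Myh11 at 0.93 (adjusted p = 0.0198) and Myl9 at 0.94 (adjusted p = 0.0103), with summed signals of 6582 and 5978 in shMiwi and 4682 and 4581 in shCaf1. The Sertoli list held 1 of 7 tested that was higher, Wt1, with summed signals of 26421 and 23592 in shMiwi and 27136 and 27235 in shCaf1. The Leydig list held 1 of 4, Cyp11a1, with sums of 23954 and 23386 in shMiwi and 19498 and 19853 in shCaf1. Of the round spermatid markers 1 of 6 was called lower, with sums of 38050 and 38133 in shMiwi and 44373 and 45751 in shCaf1. No pachytene, spermatogonial, macrophage or endothelial marker was called, with 5 at an unadjusted p under 0.05. These counts depend on the scaling as well. On the scale of the hybridization controls, Akap4 was the 1 elongating spermatid marker called lower, at -0.58, and the median of that list was -0.06. The round spermatid list had a median of 0.11 there, and 4 of 5 peritubular, 3 of 7 Sertoli and 2 of 4 Leydig markers were called higher. Over all tested probe sets 26.5% were called higher on that scale, with a median of 0.39. The part of these cells in the ribosomal protein values was not tested.

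Other genes of the ribosome and of translation were read beside the family. Between the shRNA groups, 3.39% of all tested probe sets were called lower and 3.7% higher on the deposited scale. Rpsa, a small-subunit protein outside the symbol rule, was lower in shMiwi at -0.50 (SE 0.11, adjusted p = 0.0405), with 6310 and 5961 in shMiwi, 7992 and 9370 in shCaf1, and 6139 and 15532 in control. Fau, whose product is cleaved to yield a small-subunit protein, gave -0.35 (adjusted p = 0.103). On the scale of the hybridization controls Rpsa gave -0.10 (adjusted p = 0.717) and Fau 0.05, and neither passed. Among 13 other genes whose mRNAs belong to the TOP class, 11 were negative, with a median of -0.27. Of these, Eef1d, a subunit of elongation factor 1, was the 1 called lower, at -0.61 (SE 0.11, adjusted p = 0.0211). On the hybridization controls Eef1d gave -0.22 (adjusted p = 0.355), and 2 other genes of the list were called higher. The 76 mitochondrial ribosomal protein genes had 33 negative and a median of 0.04, and limma called 0, with 9 at an unadjusted p under 0.05. On the hybridization controls 17 of the 76 were called higher, with a median of 0.42. Over all tested probe sets 26.5% were called higher on that scale, with a median of 0.39. Among 30 genes of ribosome biogenesis the median was -0.05. Mdn1, a remodelling ATPase of the pre-60S particle, was the 1 called, higher at 0.56 (SE 0.13, adjusted p = 0.0424). On the hybridization controls it was 1 of 4 called higher in its list, again against 26.5% of all tested probe sets.

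Against the empty vector, the family split into genes far lower and genes far higher on the deposited scale, in both shRNA groups. The 2 comparisons share the control arrays, so their values are given side by side. In shMiwi 14 of 47 genes were called lower, against 26.4% of all tested probe sets, and 3 higher, against 16.9%. In shCaf1 12 were called lower, against 26.0%, and 4 higher, against 15.5%. The median was -0.71 for shMiwi against control (all tested -0.20) and -0.45 for shCaf1 against control (all tested -0.25). These shares lie near the background of each comparison or below it. Markers moved as well: all 6 pachytene markers were called higher in both shRNA groups, with medians of 4.32 and 4.29. The elongating spermatid markers summed to 101991 and 94700 in shMiwi and 134038 and 145722 in shCaf1, against 903 and 591941 in control. Their part in the result was not tested.

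Rps19 had the largest negative differences against control, at -6.57 for shMiwi (SE 0.61, adjusted p = 0.0042) and -5.73 for shCaf1 (adjusted p = 0.0057). Rpl37 followed at -5.82 and -5.07, and Rpl37a at -5.41 and -4.89, for shMiwi and shCaf1 in that order. The genes with the largest positive differences were Rps4l, Rpl7l1 and Rpl4. Rps4l gave 3.36 and 3.12 and did not pass (adjusted p = 0.103 and 0.124). Rpl7l1, a relative of Rpl7, read 879 and 919 in shMiwi, 884 and 952 in shCaf1, and 25.6 and 269 in control, differences of 3.07 (adjusted p = 0.0445) and 3.10 (adjusted p = 0.0447). Rpl4, which lines the peptide exit tunnel, read 10400 and 10379 in shMiwi, 10926 and 11554 in shCaf1, and 1592 and 1262 in control, differences of 2.86 (adjusted p = 0.00619) and 2.97 (adjusted p = 0.00674). All shRNA arrays were above both control arrays for these 3 genes. On control 1 Rps4l and Rpl7l1 lay below that array's median signal of 306 and are not shown to exceed background. Their differences from control are given with that limit.

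On the scale of the hybridization controls the picture against control was another one. For shMiwi 34 of 47 genes were called higher, against 94.0% of all tested probe sets, and 0 lower. For shCaf1 31 were called higher, against 91.5%, and 0 lower, and no gene reached a lower value at an unadjusted p under 0.05 in either. The medians were 4.12 and 3.89, against 3.58 and 3.15 for all tested probe sets. Of the genes called lower on the deposited scale, 11 of 14 in shMiwi and 10 of 12 in shCaf1 turned positive. The exceptions in shMiwi were Rps19 at -1.19, Rpl37 at -0.45 and Rpl37a at -0.02, and in shCaf1 Rps19 at -0.74 and Rpl37 at -0.09. Rpl37a on this scale read 16277 and 19233 in shMiwi, 19305 and 19308 in shCaf1, and 16888 and 19085 in control, so that all 6 arrays lay close together. Rpl39l read 17003 and 20096 in shMiwi, 16439 and 18813 in shCaf1, and 3.76 and 1615 in control.

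**Figure D4:**
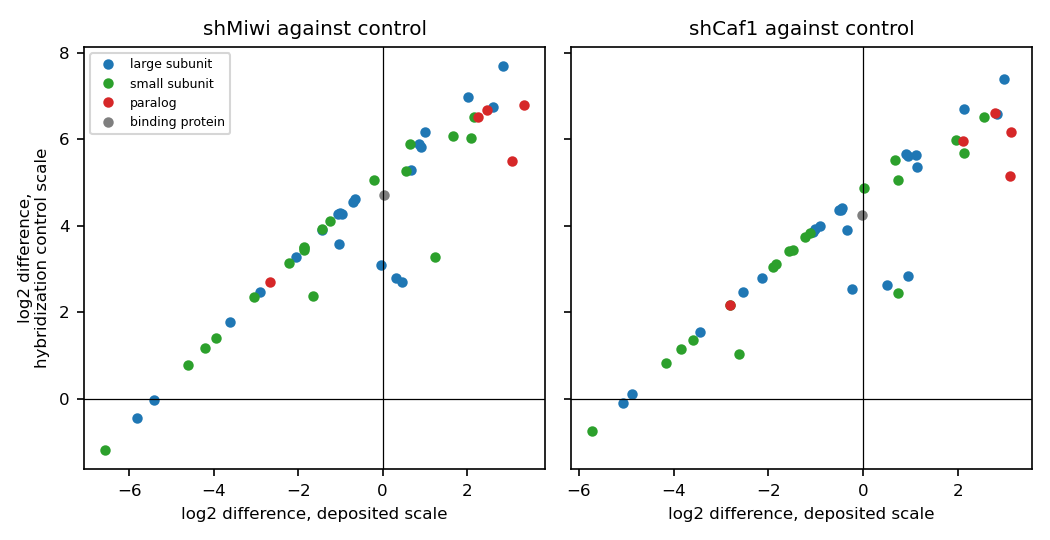
Log2 difference against control on the deposited scale (x axis) and on the scale of the hybridization controls (y axis), 1 point per tested gene, for shMiwi (left) and shCaf1 (right). Points in the upper left quadrant changed sign, and among the genes called lower on the deposited scale these number 11 of 14 for shMiwi and 10 of 12 for shCaf1.

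The counts of family members called changed with each array of a comparison. Without control 1, 34 of the 47 genes were called lower in shMiwi and 11 higher, against 44.0% and 35.5% of all tested probe sets. Without control 2 the calls for shMiwi were 20 lower and 18 higher, against 45.0% and 38.7%. For shCaf1 they were 32 lower and 11 higher without control 1, against 43.8% and 34.3%, and 19 lower and 19 higher without control 2, against 45.8% and 37.9%. These fits assume that a lone control array varies like the other groups. Leaving out either array of the compared shRNA group gave 0 calls in limma among the 47 genes, and 0 among all 27022 probe sets, with 11 or 12 genes at an unadjusted p under 0.05 in each of the 4 fits. The ratio of Rpl39l to Rpl39 for shMiwi against control was 1.08 without control 1 and 3.90 without control 2.

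Several probe sets of 1 gene were compared within the family. The 21 genes with more than 1 probe set above the filter held 68 probe sets. That filter used the mean over the shRNA arrays, so it left out probe sets dim on those arrays and not those dim on control. Part of a wider spread on the control arrays can follow from this choice, and how much was not tested. The highest signal within a gene was a median of 3.41 and 2.51 times the lowest on the shMiwi arrays and 3.61 and 4.11 times on the shCaf1 arrays. On the control arrays it was 73.7 and 11.3 times. Rpl27 shows this, with 125703 on its chosen probe set and 22.8 and 23.7 on the other 2 on control 1. On the first shMiwi array the same 3 probe sets read 7287, 3386 and 2137. The sign of the difference was mixed within a gene for 8 of the 21 between the shRNA groups, and for 14 of the 21 in each comparison with control. Over all probe sets of the family, 94 were tested between the shRNA groups, of which 11 were called lower and 1 higher. Among all tested probe sets 3.39% were called lower and 3.7% higher. The 1 called higher was the third probe set of Rpl7, at 1.23 (SE 0.24, adjusted p = 0.0255), with 5684 and 10124 in shMiwi and 3657 and 2855 in shCaf1. The chosen probe set of Rpl7 gave -0.12. The 8 called genes had 14 other tested probe sets, of which 11 were negative and 0 were called.

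**Figure D5:**
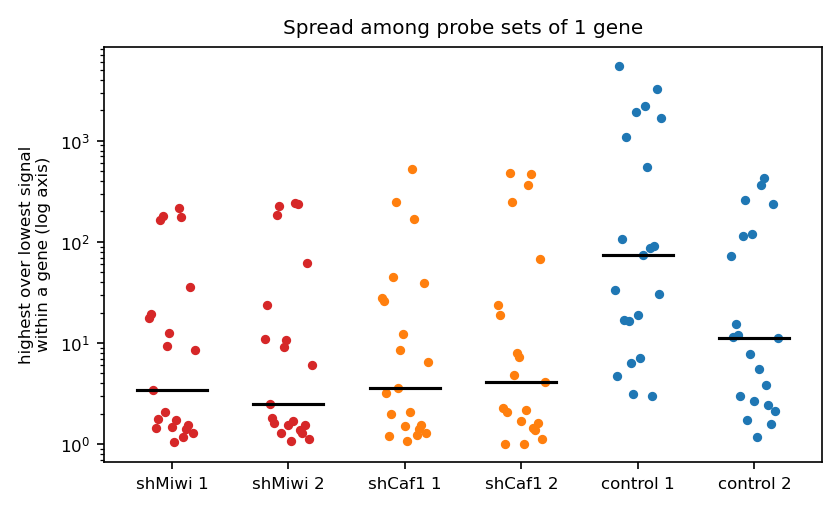
Highest over lowest signal among the probe sets of 1 gene (y axis, log axis) on each array (x axis), 1 point for each of 21 genes, with the median as a bar. The medians lie between 2.51 and 4.11 on the 4 shRNA arrays, against 73.7 on control 1 and 11.3 on control 2. Probe sets were kept by their mean on the shRNA arrays, so part of this contrast can follow from the filter.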

How the data were processed

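For each of 45101 probe sets the authors deposited 1 signal intensity per array, on a linear scale, and no version of MAS5, the summary of perfect-match and mismatch probes that the submitters' processing notes name, is stated. The genome build is not given in the sources used here. On all 6 arrays the 2% trimmed mean of the deposited intensities was 500. Groups and replicate numbers came from the sample titles, and the number of arrays limits the precision of every value.

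Intensities were taken to log2 after adding 16, so that differences of dim probe sets are understated; fitted differences and their 95% intervals are log2 values computed from the deposited intensities. Without the 64 control probe sets, those whose mean log2 on the arrays fitted exceeded the 40th percentile were tested, 27022 in number. limma 3.58.1 in R 4.3.3 (lmFit, eBayes with an intensity trend) compared shMiwi with shCaf1 on the 4 shRNA arrays, and each with control in 1 model of all 6 arrays. P-values were adjusted over all tested probe sets (Benjamini-Hochberg). Ratios of paralog to parent were compared with an exact permutation test, and 18 hybridization control probe sets gave the other scale. The limma fit of the 4 arrays was tested on simulated data.

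The platform annotation names 1 gene for 34945 probe sets, several for 932 and none for 9160, and all 49 symbols matched RefSeq (GRCm38.p6) through gene identifiers. The members, lists and tests were chosen with earlier results of these data known. The text names paralogs and their X-linked parents, stalk proteins, the 6 largest differences in each direction between the shRNA groups, the 3 largest in each direction against control, and up to 2 genes per list and direction. Other genes, among them those called and those sharing a named pair, were chosen after their values were seen.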

Additional observations from a re-analysis of the deposited data

How the results depend on the processing

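Between the shRNA groups, the 8 lower calls became 1 with median centring or without the filter, 2 with quantile scaling, and 0 in 1 model of all 6 arrays (0 at an unadjusted p under 0.05) or without the intensity trend (11 at an unadjusted p under 0.05). Leaving out probe sets with the suffix s or x, a setting that tests fewer genes, gave 1 call and a median of -0.11. The family median of -0.20 was -0.028 with quantile scaling and 0.19 on the hybridization controls, where 7 genes were called, all higher. With the replicate number as a block, 1 gene was called higher and 18 lower, 19 in all. The share of all tested probe sets called with the block is not given here. These counts are therefore not read as particular to the family. Deviations of same-numbered arrays correlated at 0.19 for shMiwi and shCaf1, 0.0040 for shMiwi and control and 0.061 for shCaf1 and control. No source used here says what a number marks, so the pairing is not settled. Leaving out 1 array gave between 1 and 7 calls and medians between -0.25 and -0.15: 3 without shMiwi 1, 7 without shMiwi 2, 3 without shCaf1 1 and 1 without shCaf1 2. A lone array is taken there to vary like the other group. Against control, shMiwi had 11 calls with only the 4 arrays compared, and 34 calls with a median of 4.12 on the hybridization controls; its median was 0.87 with median centring, which moved that of all probe sets to 1.38. For shCaf1 the hybridization controls gave 31 calls and a median of 3.89, and median centring a median of 1.12. Leaving out 1 array gave between 0 and 45 calls for shMiwi and between 0 and 43 for shCaf1. Rpl37a in shCaf1 against control turned to 0.10 on the hybridization controls. The cause of these changes was not tested beyond the settings named. Other constants, the 60th percentile filter and the choice of probe set over 6 arrays left each of these counts within 1.5 times. Control 1, with little signal per hybridization control, limits every value against control.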
